A study of Homo sapiens with 12 samples.

Results

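The 7 genes described here are ID1, ID2, ID3 and ID4, the whole human family of inhibitor-of-DNA-binding proteins, with SMAD7, SKIL and BAMBI, which encode feedback inhibitors of TGF-beta and BMP signalling. They were taken by name, with earlier results of these data known, so their counts beside those of all genes are descriptive. All 7 of them were found among the 27011 genes of the RNA-seq and Ribo-seq count tables. The libraries come from HEK293T, a human embryonic kidney cell line, harvested 24 h after plating on 15 cm dishes. The genotypes were 4EHP-null, GIGYF1/2-null, labelled as lacking GIGYF1 and GIGYF2, and the wild-type line (WT). Every genotype had 2 RNA-seq libraries, which measure mRNA, and 2 Ribo-seq libraries, which count ribosome-protected fragments (footprints). The 4EHP protein, encoded by EIF4E2, binds the mRNA cap without recruiting the translation initiation complex, and the GIGYF proteins are its partners in repressing mRNAs. The series title names translation-coupled mRNA decay as its subject. No treatment was given, and the labels do not say how the null lines were made or whether each is a single clone.

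ID proteins carry a helix-loop-helix but no basic DNA-binding region, so they hold E proteins and other helix-loop-helix factors in dimers that cannot bind DNA. ID1, ID2 and ID3 are classical targets of BMP receptors acting through SMAD1 and SMAD5. SMAD7 occupies activated receptors and recruits ubiquitin ligases, SKIL (SnoN) is a nuclear co-repressor bound to SMADs, and BAMBI is a pseudoreceptor without a kinase domain; TGF-beta or BMP signals induce them, which closes a negative feedback loop.

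Start-proximal sequences are shown for ID1, ID2, ID3 and BAMBI, the 4 genes whose footprints passed the test between the null lines. They are the 250 bases before the annotated start, from RefSeq on GRCh38.p14, written along the gene's own strand. The windows are chr20:31605039-31605288 (plus strand) for ID1, chr2:8681806-8682055 (plus) for ID2, chr1:23559502-23559751 (minus) for ID3 and chr10:28677271-28677520 (plus) for BAMBI. Capitals mark the motifs found on either strand, which were the TATA box (TATAAA), the CCAAT box, the GC-rich SMAD motif (GGCGCC) and the core of the cAMP response element (TGACG).
ID1: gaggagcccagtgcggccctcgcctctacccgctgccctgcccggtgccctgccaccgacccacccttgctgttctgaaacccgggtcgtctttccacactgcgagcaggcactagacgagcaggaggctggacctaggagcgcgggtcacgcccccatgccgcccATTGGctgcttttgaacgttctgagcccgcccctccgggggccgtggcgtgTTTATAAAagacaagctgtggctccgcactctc
ID2: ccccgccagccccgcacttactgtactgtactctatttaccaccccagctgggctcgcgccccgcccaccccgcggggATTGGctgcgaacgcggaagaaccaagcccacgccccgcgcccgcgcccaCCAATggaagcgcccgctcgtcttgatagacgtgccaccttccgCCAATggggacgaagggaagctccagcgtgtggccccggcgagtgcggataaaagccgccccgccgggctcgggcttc
ID3: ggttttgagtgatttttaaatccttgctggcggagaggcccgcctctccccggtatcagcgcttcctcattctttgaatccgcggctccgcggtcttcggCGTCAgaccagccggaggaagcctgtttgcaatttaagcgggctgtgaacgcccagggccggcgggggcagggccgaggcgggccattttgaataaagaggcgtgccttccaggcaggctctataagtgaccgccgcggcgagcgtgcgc
BAMBI: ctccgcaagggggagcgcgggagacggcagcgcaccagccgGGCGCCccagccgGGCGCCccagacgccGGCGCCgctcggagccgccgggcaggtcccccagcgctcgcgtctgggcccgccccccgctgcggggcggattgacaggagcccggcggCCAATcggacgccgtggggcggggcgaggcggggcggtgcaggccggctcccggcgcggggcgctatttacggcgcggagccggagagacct

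CCAAT stood 3 times in the ID2 window, 172, 122 and 78 bases before the start, and once in those of ID1 (84 bases) and BAMBI (92 bases). It occurs in 32% of the 35116 RefSeq promoter windows of this length. ID1 had a TATAAA match on each strand, overlapping each other 33 and 31 bases before the start, against 10.7% of all windows with at least 1. BAMBI held 3 copies of GGCGCC, the core of a GC-rich element described in BMP-responsive promoters, at 209, 196 and 181 bases, and 16.4% of all windows hold 1 or more. ID3 had none of these and a TGACG (21.2% of windows) at 150 bases. Among the members whose windows are not printed, ID4 had a TATAAA at 29 and a CCAAT at 220 bases. A SMAD7 window had a TATAAA at 35 bases, and SKIL a GGCGCC at 190 and TGACG at 79, 54 and 51 bases. The SMAD palindrome GTCTAGAC, present in 0.182% of windows, and the E-box CACGTG, present in 6.34%, were in none of the windows of the 7 genes. SKIL was the only member with the full cAMP element TGACGTCA (1.65% of windows), which contains TGACG in both orientations. GTCT, the short SMAD-binding motif contained in GTCTAGAC, was in every window of the 7 genes and in 77.5% of all windows.

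Depth ran from 26143118 to 38175701 counts in RNA-seq and from 6536493 to 10816080 counts in Ribo-seq. EIF4E2 mRNA was 51.0 and 46.7 CPM (counts scaled to a library's depth) in 4EHP-null cells, against 123 and 123 in WT. GIGYF1 mRNA was 22.4 and 26 CPM in GIGYF1/2-null cells, against 41.2 and 40.8 in WT, and its footprints were 1.70 and 2.74 CPM, against 8.69 and 6.72. GIGYF2 mRNA was 96.7 and 81.8 CPM in GIGYF1/2-null cells and 81.2 and 66.1 in WT. Its footprints were 81.6 and 51.7 CPM in GIGYF1/2-null cells and 90.8 and 63.9 CPM in WT cells, which overlap (change -0.22 ± 0.23, adjusted p = 0.671, edgeR). Neither readout thus shows a loss of GIGYF2 against WT in the libraries labelled GIGYF1/2-null. GIGYF2 footprints in 4EHP-null cells were 110 and 86.2 CPM. Against these, the GIGYF1/2-null change was -0.56 ± 0.23 in footprints (adjusted p = 0.137, edgeR) and 0.38 ± 0.11 in mRNA (adjusted p = 0.0222, edgeR). Of 10 genes listed as typical of HEK293T, 7 reached 1 CPM in both 4EHP-null libraries, with NEFH and LHX1 under 1 CPM in both, and 9 did so in GIGYF1/2-null and in WT cells. Endothelial (0 of 3) and hepatocyte (0 of 2) markers stayed under 1 CPM in every genotype, and so did the leukocyte markers PTPRC, CD3E and LYZ, while the leukocyte marker CD68 reached 1 CPM in every library. Fibroblast markers summed to 7.21 and 9.07 CPM in 4EHP-null cells, 12.6 and 12.1 CPM in GIGYF1/2-null cells and 6.85 and 7.23 CPM in WT cells, with COL1A2, DCN and PDGFRB of the 5 under 1 CPM throughout.

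Mean levels of the 7 genes were lowest in 4EHP-null cells and highest in GIGYF1/2-null cells, except SMAD7 footprints, whose mean was 2.43 CPM in GIGYF1/2-null and 2.44 CPM in WT cells. Against WT, all 7 had a negative mRNA change in 4EHP-null cells and all 7 a positive one in GIGYF1/2-null cells, and the footprint changes had the same signs. Among all 15637 genes tested in mRNA, 7754 were positive and 7881 negative in 4EHP-null cells, and 7965 positive and 7672 negative in GIGYF1/2-null cells. Most of the members' changes against WT did not pass the test at an adjusted p under 0.05 (edgeR quasi-likelihood test, adjusted by Benjamini-Hochberg over all genes). Some of these signs rested on 1 library: without it the uncalled mRNA change of ID1 in 4EHP-null cells was 0.11 (WT RNA-seq replicate 1 left out) or 0.03 (4EHP-null replicate 2). In GIGYF1/2-null cells that of SMAD7 was -0.08 (WT replicate 2) or -0.15 (GIGYF1/2-null replicate 1), and that of SKIL -0.045 (GIGYF1/2-null replicate 1). The fitted footprint change of SMAD7 in GIGYF1/2-null cells, 0.02, was -0.09 without WT Ribo-seq replicate 2 and -0.07 without GIGYF1/2-null Ribo-seq replicate 2. That of SKIL in 4EHP-null cells was 0.18 without 4EHP-null Ribo-seq replicate 2. Both null lines were compared with the same WT libraries, and the direct comparison of the null lines is therefore given with each gene. In a bulk culture, fewer cells expressing a gene and less RNA per cell cannot be told apart.

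In mRNA of 4EHP-null cells, 1 of the 7 genes fell, ID2, where 6.63% of all genes tested fell, so the count is near the background. Both 4EHP-null libraries were below both WT libraries for 6 genes, all but ID1, which 29.1% of all genes were. The fall of ID2 depended on single libraries, and 0 members passed without WT RNA-seq replicate 1 or either 4EHP-null library. A fit with the replicate number as a block called 3, adding ID3 (adjusted p = 0.00329) and SKIL (0.0423). In GIGYF1/2-null cells 3 of the 7 rose, ID2, ID3 and BAMBI, where 5.2% of all genes rose. ID1, ID2, ID3, ID4 and BAMBI had both GIGYF1/2-null libraries above both WT libraries, as did 26.8% of all genes. Between the null lines, 5 of the 7 were higher in GIGYF1/2-null cells at the adjusted threshold (ID2, ID3, ID4, SKIL and BAMBI), against 11.4% of all genes, and 3 were without 4EHP-null RNA-seq replicate 2. All 7 had non-overlapping libraries in that direction, against 31.7% of all genes. Median mRNA changes of the members were -0.28 in 4EHP-null and 0.28 in GIGYF1/2-null cells against WT, and 0.52 between the null lines (log2), beside -0.003, 0.005 and 0.002 over all genes. The plot of levels by library shows these steps.

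**Figure D1:**
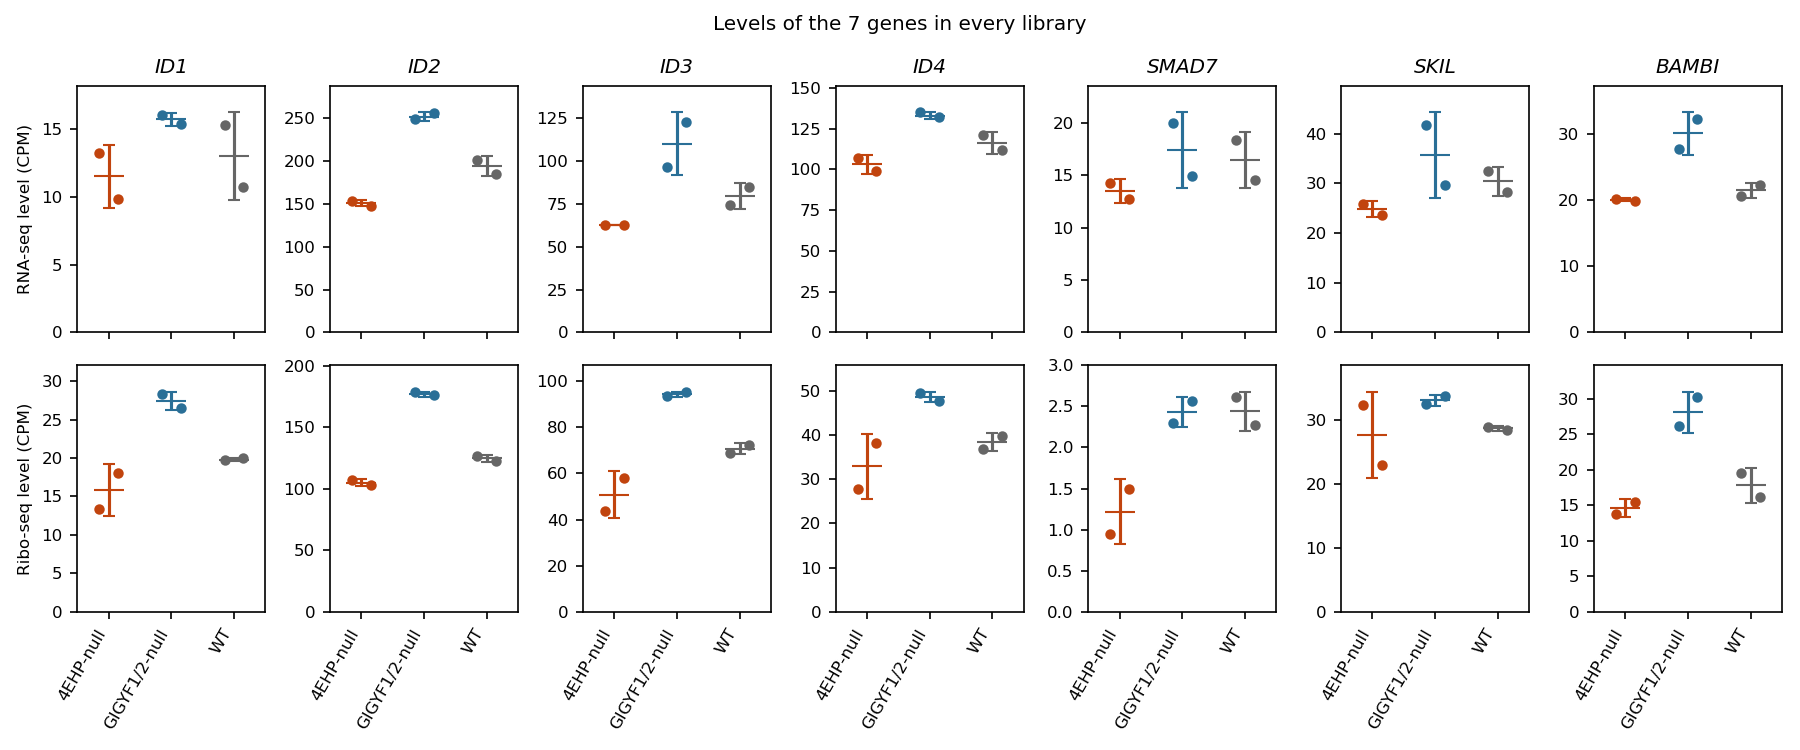
RNA-seq (top) and Ribo-seq (bottom) levels of the 7 genes in CPM (linear axes from 0), with a point for each of 2 libraries and bars for mean ± SD; genotypes run 4EHP-null, GIGYF1/2-null, WT. The 2 GIGYF1/2-null points lie above the 2 4EHP-null points in every panel, and SMAD7 footprints are at most 2.61 CPM.

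In footprints, 0 of the 7 genes passed the edgeR test in 4EHP-null against WT cells, where 3.04% of all 14722 genes tested did. Unadjusted p was under 0.05 for 2 of them, ID3 and SMAD7, and DESeq2 and limma-voom also called 0. The fit with a replicate block called 1, ID3 (adjusted p = 0.00872). Both 4EHP-null libraries were under both WT libraries for ID1, ID2, ID3, SMAD7 and BAMBI, as for 26.8% of all genes. In GIGYF1/2-null against WT cells, edgeR also called 0 of 7, beside 2.09% of all genes; 4 had an unadjusted p under 0.05, DESeq2 called 1 (ID2) and limma-voom 0. A fit with the replicate number as a block called 4 of 7, namely BAMBI (adjusted p = 0.000918), ID2 (0.00129), ID3 (0.0173) and ID1 (0.0273). The labels do not say that the numbers mark shared cultures or days. All but SMAD7 had both GIGYF1/2-null libraries above both WT libraries, as 24.2% of all genes did. Between the null lines, footprints of 4 genes were higher in GIGYF1/2-null cells (ID1, ID2, ID3 and BAMBI), against 3.98% of all genes. Without 4EHP-null Ribo-seq replicate 1 only ID2 was called. All 7 had non-overlapping libraries, against 28.2% of all genes. Median footprint changes of the members were -0.27, 0.415 and 0.79 in these 3 comparisons, beside -0.004, 0.002 and 0.026 over all genes.

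**Figure D2:**
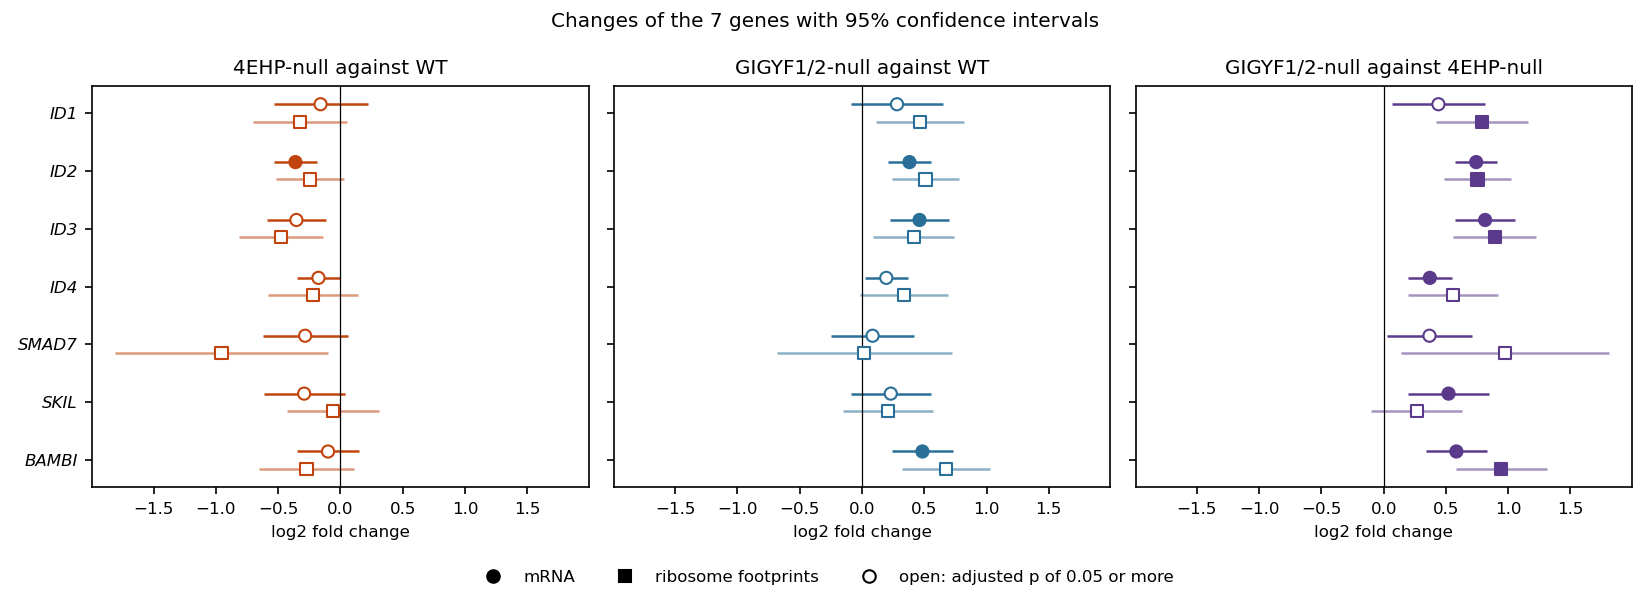
Log2 fold changes of the 7 genes in mRNA (circles) and footprints (squares) with 95% confidence intervals, 2 libraries per genotype; filled symbols have an edgeR adjusted p under 0.05. The symbols lie left of 0 in 4EHP-null against WT, right of 0 in GIGYF1/2-null against WT and farther right between the null lines, where 9 of 14 are filled.

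ID2, which restrains E-protein-driven differentiation in many lineages, was the most abundant of the 7 genes. Its mRNA was 153 and 148 CPM in 4EHP-null cells, 249 and 256 CPM in GIGYF1/2-null cells, and 202 and 185 CPM in WT cells. The 3 genotypes did not overlap, and the libraries of each null line differed by less than its distance from WT. ID2 mRNA fell by 0.36 ± 0.08 (log2 ± SE, n = 2 per genotype, adjusted p = 0.01, edgeR) in 4EHP-null cells. It rose by 0.38 ± 0.08 (adjusted p = 0.00734) in GIGYF1/2-null cells. ID2 footprints were 107 and 103 CPM in 4EHP-null cells, 179 and 176 CPM in GIGYF1/2-null cells, and 127 and 123 CPM in WT cells. Their changes against WT were -0.24 ± 0.12 (adjusted p = 0.314) in 4EHP-null and 0.51 ± 0.12 (adjusted p = 0.0556) in GIGYF1/2-null cells. Between the null lines the difference was 0.74 ± 0.08 in mRNA (adjusted p = 4.24e-05) and 0.75 ± 0.12 in footprints (adjusted p = 0.00354). Both of these held with any 1 library left out. The fall of ID2 mRNA in 4EHP-null cells did not pass without WT RNA-seq replicate 1 (adjusted p = 0.107) or either 4EHP-null library (0.063 without replicate 1, 0.112 without replicate 2), and the rise in GIGYF1/2-null cells not without WT replicate 2 (0.0986).

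ID3, a close relative of ID1 in sequence and in its response to BMP, had 62.4 CPM of mRNA in both 4EHP-null libraries. It had 96.8 and 123 CPM in GIGYF1/2-null cells and 74.3 and 85.1 CPM in WT cells, again without overlap. ID3 mRNA rose by 0.46 ± 0.11 in GIGYF1/2-null cells (adjusted p = 0.016), and in 4EHP-null cells it differed from WT by -0.35 ± 0.11 (adjusted p = 0.0538). The rise was not called without WT RNA-seq replicate 1 (adjusted p = 0.176) or GIGYF1/2-null replicate 2 (0.121). The change in 4EHP-null cells passed without GIGYF1/2-null RNA-seq replicate 1 (0.00948) or replicate 2 (0.0109), which raised the count of called members to 2. ID3 footprints were 43.6 and 57.9 CPM in 4EHP-null cells, 93.6 and 95.2 CPM in GIGYF1/2-null cells, and 69.1 and 72.5 CPM in WT cells. Between the null lines ID3 differed by 0.81 ± 0.11 in mRNA (adjusted p = 0.000253), called with any 1 library left out. The footprint difference was 0.89 ± 0.15 (adjusted p = 0.00431), and without 4EHP-null Ribo-seq replicate 1, the lower of its pair, it was 0.70 (adjusted p = 0.0585).

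ID1, the founding member of the family, was the least abundant ID mRNA. It stood at 13.2 and 9.87 CPM in 4EHP-null cells, 16.0 and 15.4 CPM in GIGYF1/2-null cells, and 15.3 and 10.7 CPM in WT cells. The 4EHP-null and WT libraries overlapped, and no mRNA comparison of ID1 passed the test; between the null lines the change was 0.44 ± 0.17 (adjusted p = 0.082). That difference passed without either WT RNA-seq library (0.0488 without replicate 1, 0.047 without replicate 2) and without 4EHP-null replicate 1 (0.0471). Its footprints separated more clearly, with 13.4 and 18.1 CPM in 4EHP-null cells, 28.3 and 26.5 CPM in GIGYF1/2-null cells, and 19.7 and 20.0 CPM in WT cells. ID1 footprints were higher in GIGYF1/2-null than in 4EHP-null cells by 0.79 ± 0.17 (adjusted p = 0.0128), but not past the threshold without 4EHP-null Ribo-seq replicate 1 (0.59, adjusted p = 0.13). Against WT, the footprint changes of ID1 were -0.33 ± 0.17 (adjusted p = 0.338) in 4EHP-null and 0.46 ± 0.16 (adjusted p = 0.163) in GIGYF1/2-null cells.

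ID4, known from neural precursors and spermatogonial stem cells, had the smallest mRNA difference of the family between the null lines. Its mRNA was 107 and 98.9 CPM in 4EHP-null cells, 135 and 132 CPM in GIGYF1/2-null cells, and 121 and 112 CPM in WT cells. The pairs did not overlap, with changes against WT of -0.18 ± 0.08 (adjusted p = 0.18) and 0.20 ± 0.08 (adjusted p = 0.146). Only the difference between the null lines passed, at 0.37 ± 0.08 (adjusted p = 0.00538), and not without 4EHP-null RNA-seq replicate 2 (adjusted p = 0.0869). ID4 footprints were 27.7 and 38.2 CPM in 4EHP-null cells, 49.5 and 47.8 CPM in GIGYF1/2-null cells, and 36.9 and 39.8 CPM in WT cells. The 4EHP-null pair straddled a WT library, and the difference between the null lines, 0.56 ± 0.17, had an adjusted p of 0.0509. It passed without 4EHP-null Ribo-seq replicate 2 (adjusted p = 0.039).

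BAMBI, the decoy receptor, rose in GIGYF1/2-null cells and was nearly level with WT in 4EHP-null mRNA. It had 20.2 and 19.9 CPM of mRNA in 4EHP-null cells, 27.8 and 32.3 CPM in GIGYF1/2-null cells, and 20.7 and 22.3 CPM in WT cells. Its change was 0.49 ± 0.11 (adjusted p = 0.0137) in GIGYF1/2-null cells and -0.10 ± 0.11 (95% interval -0.35 to 0.15, adjusted p = 0.625) in 4EHP-null cells. The rise was lost without WT RNA-seq replicate 1 (adjusted p = 0.109) or GIGYF1/2-null replicate 2 (0.103), each of which left 1 called member in this comparison. BAMBI footprints were 13.7 and 15.5 CPM in 4EHP-null cells, 26.1 and 30.2 CPM in GIGYF1/2-null cells, and 19.6 and 16.1 CPM in WT cells. Between the null lines BAMBI differed by 0.58 ± 0.11 in mRNA (adjusted p = 0.00258), which held with any 1 library left out. In footprints it differed by 0.94 ± 0.17 (adjusted p = 0.00534), and by 0.86 (adjusted p = 0.0661) without 4EHP-null Ribo-seq replicate 1. Its footprint change in GIGYF1/2-null against WT cells was 0.67 ± 0.16 (adjusted p = 0.0556), and it passed without GIGYF1/2-null Ribo-seq replicate 1 (0.0278).

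SKIL encodes SnoN, the SMAD co-repressor. Its mRNA was 25.9 and 23.7 CPM in 4EHP-null cells, 41.7 and 29.6 CPM in GIGYF1/2-null cells, and 32.5 and 28.3 CPM in WT cells. The GIGYF1/2-null libraries lay far apart and overlapped the WT range. Neither change against WT passed (-0.29 ± 0.15, adjusted p = 0.235, and 0.23 ± 0.15, adjusted p = 0.369). The null lines differed by 0.52 ± 0.15 (adjusted p = 0.0238). That call was lost without either 4EHP-null RNA-seq library (adjusted p = 0.0524 for replicate 1, 0.124 for replicate 2) or GIGYF1/2-null replicate 1 (0.217). SKIL footprints were 32.4 and 22.9 CPM in 4EHP-null cells, 32.5 and 33.8 CPM in GIGYF1/2-null cells, and 29.0 and 28.5 CPM in WT cells, and no footprint comparison passed.

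SMAD7, the inhibitory SMAD, was poorly covered in Ribo-seq and was called in no comparison of the edgeR fit described above. Of 14 alternative fits, 3 called its mRNA difference between the null lines. Its mRNA was 14.3 and 12.7 CPM in 4EHP-null cells, 20.0 and 14.9 CPM in GIGYF1/2-null cells, and 18.4 and 14.6 CPM in WT cells. SMAD7 footprints were 0.945 and 1.5 CPM in 4EHP-null cells (6 and 11 reads), 2.30 and 2.57 CPM in GIGYF1/2-null cells (19 and 29 reads), and 2.61 and 2.27 CPM in WT cells (18 and 24 reads). The 4EHP-null libraries were below all others, with a change of -0.955 ± 0.39 against WT (95% interval -1.81 to -0.10, unadjusted p = 0.0314, adjusted p = 0.217). Between the null lines its mRNA differed by 0.37 ± 0.16 (adjusted p = 0.108), and this passed without GIGYF1/2-null RNA-seq replicate 2 (0.0257).

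Scaled to gene length, mRNA levels in WT cells ran from ID2 (142 ± 8.57 CPM per kb, mean ± SD, n = 2) through ID3 (64.3 ± 6.17), ID4 (30.0 ± 1.71), BAMBI (12.5 ± 0.664) and ID1 (10.5 ± 2.61) to SMAD7 (4.78 ± 0.779) and SKIL (4.18 ± 0.41). BAMBI and ID1 lay within their spread of each other, as did SMAD7 and SKIL. Summed over the family, ID mRNA was 201 and 193 CPM per kb in 4EHP-null cells, 308 and 333 in GIGYF1/2-null cells and 252 and 242 in WT cells. ID2 supplied 55.9% to 59.1% of that sum in every library. The genotypes did not overlap, in step with ID2 and ID3, which make up most of the sum. For the 3 E proteins that ID proteins bind, TCF3, TCF4 and TCF12, the sums were 38.7 and 33.6 CPM per kb in 4EHP-null cells, 34 and 32.1 in GIGYF1/2-null cells and 35.5 and 35.0 in WT cells. The ratio of the ID sum to the E protein sum was 5.19 and 5.72 in 4EHP-null cells, 9.05 and 10.4 in GIGYF1/2-null cells and 7.09 and 6.91 in WT cells. In footprints that ratio was 13.7 and 15.6 in 4EHP-null cells, 25.8 and 30.1 in GIGYF1/2-null cells and 14.7 and 18.3 in WT cells, and 4EHP-null and WT overlapped. These sums and ratios are descriptions without a test, and those of footprints were scaled to whole gene length rather than coding length. Of the 3 E proteins, TCF12 alone passed a mRNA test, lower in GIGYF1/2-null than in 4EHP-null cells by a change of -0.43 ± 0.13 (adjusted p = 0.0312). That call was lost without 4EHP-null RNA-seq replicate 1 (0.163) or GIGYF1/2-null replicate 2 (0.179).

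Footprint changes were set against mRNA changes in a test of translation efficiency, an interaction of assay and genotype fitted over 12 libraries. edgeR called 0 of the 7 members in each of the 3 comparisons, where 0.0981% (4EHP-null against WT), 0.0453% (GIGYF1/2-null against WT) and 0.181% (between the null lines) of 13257 genes were called. None had an unadjusted p under 0.05, and DESeq2 and limma-voom called 0 as well. For ID2 the efficiency change was 0.14 ± 0.14 (95% interval -0.15 to 0.43) in 4EHP-null and 0.14 ± 0.13 (-0.15 to 0.43) in GIGYF1/2-null cells. The interval for SMAD7 in 4EHP-null cells was the widest, from -1.64 to 0.35. The smallest unadjusted p of the 7 genes was that of BAMBI between the null lines, 0.0975 (edgeR), at 0.35 ± 0.20. Footprints per mRNA, as CPM of footprints over mean CPM of mRNA, were 0.713 and 0.684 for ID2 in 4EHP-null cells, 0.710 and 0.698 in GIGYF1/2-null cells and 0.654 and 0.633 in WT cells. SMAD7 had far fewer footprints per mRNA than the others, with 0.0701 and 0.111 in 4EHP-null cells, 0.132 and 0.147 in GIGYF1/2-null cells and 0.158 and 0.138 in WT cells. These values are not scaled to the coding part of each gene, so differences between genes do not measure translation alone.

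**Figure D3:**
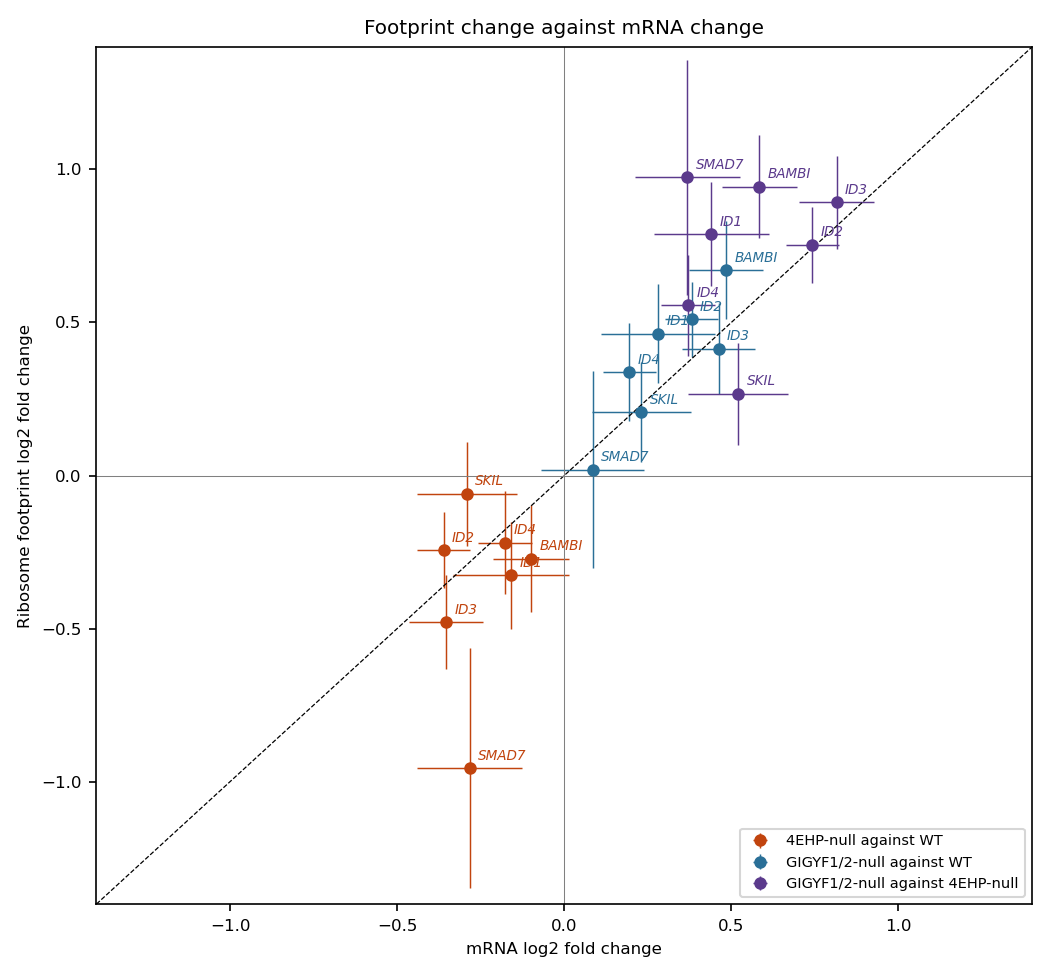
Footprint log2 fold change against mRNA log2 fold change for the 7 genes in the 3 comparisons, with standard errors as bars; the dashed line marks equal change, and 4EHP-null and GIGYF1/2-null share the WT libraries. Points follow the line from the lower left (4EHP-null against WT) to the upper right (between the null lines), with SMAD7 in 4EHP-null cells farthest below it.

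The rest of the pathway was read from lists by role. Called genes went both ways in some lists and comparisons, and only up or only down in others. Of 21 ligands tested, 4 rose and 2 fell in 4EHP-null mRNA and 2 rose in GIGYF1/2-null mRNA. Over all genes tested 6.47% rose and 6.63% fell in 4EHP-null mRNA, and 5.2% rose and 6.75% fell in GIGYF1/2-null mRNA. BMP2, a ligand upstream of the ID genes, had 0.672 and 0.724 CPM in 4EHP-null cells, 2.22 and 2.78 in GIGYF1/2-null cells and 2.20 and 3.39 in WT cells. It fell by 2.01 ± 0.32 in 4EHP-null cells (adjusted p = 0.00171), called with any 1 library left out. BMP7, a BMP ligand with higher mRNA levels, went the other way in 4EHP-null cells. It had 62.2 and 67 CPM there, 54.3 and 52.6 in GIGYF1/2-null cells and 45.3 and 46.6 in WT cells. BMP7 rose by 0.49 ± 0.09 in 4EHP-null cells (adjusted p = 0.00318, edgeR). Without WT RNA-seq replicate 1 the BMP7 change was 0.47 and was no longer called. GDF6, another BMP-type ligand, had 0.52 and 0.571 CPM in 4EHP-null cells, 1.90 and 1.87 in GIGYF1/2-null cells and 2.27 and 1.34 in WT cells. The null lines differed in GDF6 by 1.79 ± 0.37 (adjusted p = 0.00421), which held with any 1 library left out. INHBE, an activin subunit, rose by 2.15 ± 0.33 in 4EHP-null cells (adjusted p = 0.00143), with 3.42 and 5.49 CPM, beside 0.475 and 0.789 in GIGYF1/2-null and 0.813 and 1.16 in WT cells. INHBB, the activin B subunit, rose by 1.98 ± 0.20 in GIGYF1/2-null cells (adjusted p = 6.94e-05), with 6.65 and 6.43 CPM, beside 2.60 and 2.86 in 4EHP-null and 1.69 and 1.61 in WT cells.

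All 16 receptors were tested; 3 rose and 2 fell in 4EHP-null mRNA, and 2 rose in GIGYF1/2-null mRNA. BMPR1A, the type I receptor that phosphorylates SMAD1 and SMAD5, had 48.0 and 45.9 CPM in 4EHP-null cells, 64.6 and 57.9 in GIGYF1/2-null cells and 66.4 and 62.8 in WT cells. It fell by 0.46 ± 0.09 in 4EHP-null cells (adjusted p = 0.00567), a call lost without WT RNA-seq replicate 1 (0.0741) or 4EHP-null replicate 2 (0.0654). Of the 24 tested genes nearest to BMPR1A on chromosome 10, 21 were also negative in 4EHP-null cells, with a median of -0.45. SMAD1, SMAD2, SMAD3, SMAD4 and SMAD5, the signal-carrying SMADs, passed no test in mRNA or footprints. Their 95% intervals for mRNA against WT lay between -0.46 (SMAD3, 4EHP-null) and 0.32 (SMAD2, 4EHP-null). SMAD3 had 30 and 28.3 CPM of mRNA in 4EHP-null cells and 34.5 and 34.5 in WT cells. SMAD3 footprints were 5.83 and 6.68 CPM in 4EHP-null cells and 9.13 and 8.7 in WT cells. Over the 7 SMADs listed, 2 changes were positive and 5 negative in 4EHP-null mRNA, and 4 positive and 3 negative in 4EHP-null footprints. SMAD9, a further BMP-responsive SMAD, had 20.8 and 17.0 CPM in GIGYF1/2-null cells and 33.0 and 28.8 in WT cells and fell by 0.71 ± 0.12 (adjusted p = 0.00269), while its 24 neighbours had a median of -0.56, 23 of them negative. SMAD6, an inhibitory SMAD like SMAD7, had 10.2 and 6.63 CPM of mRNA in 4EHP-null cells, 14.4 and 12 in GIGYF1/2-null cells and 13.3 and 11 in WT cells. Its null lines differed by 0.64 ± 0.19 (adjusted p = 0.025), lost without 4EHP-null RNA-seq replicate 2 (0.216) or GIGYF1/2-null replicate 1 (0.109), and its neighbours differed by a median of 0.40.

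The inhibitor list holds secreted and intracellular antagonists. Of 21 tested, 1 rose and 4 fell in 4EHP-null mRNA, and 1 rose and 3 fell in GIGYF1/2-null mRNA. CHRDL1, a secreted protein that binds BMPs, had 0.428 and 0.114 CPM of mRNA in 4EHP-null cells (14 and 3 reads), 13.9 and 13.7 in GIGYF1/2-null cells and 3.05 and 2.39 in WT cells. It fell by 3.22 ± 0.35 in 4EHP-null cells (adjusted p = 0.000118) and rose by 2.35 ± 0.21 in GIGYF1/2-null cells (adjusted p = 3.79e-05), both with any 1 library left out. CHRDL1 footprints were 0 in both 4EHP-null libraries, 8.73 and 9.55 CPM in GIGYF1/2-null cells and 1.16 and 1.70 CPM in WT cells. With 3 counts per library as the limit for 0, they were at least 3.25-fold lower in 4EHP-null than in WT cells. NOG, a BMP antagonist chosen after its values were seen, had 1.53 and 2.02 CPM in 4EHP-null cells, 2.94 and 4.03 in GIGYF1/2-null cells and 2.85 and 3.93 in WT cells. It fell by 0.95 ± 0.27 in 4EHP-null cells (adjusted p = 0.0353), a call lost without either WT RNA-seq library (0.0536 for replicate 1, 0.275 for replicate 2) or either 4EHP-null library (0.206 and 0.0637).

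**Figure D4:**
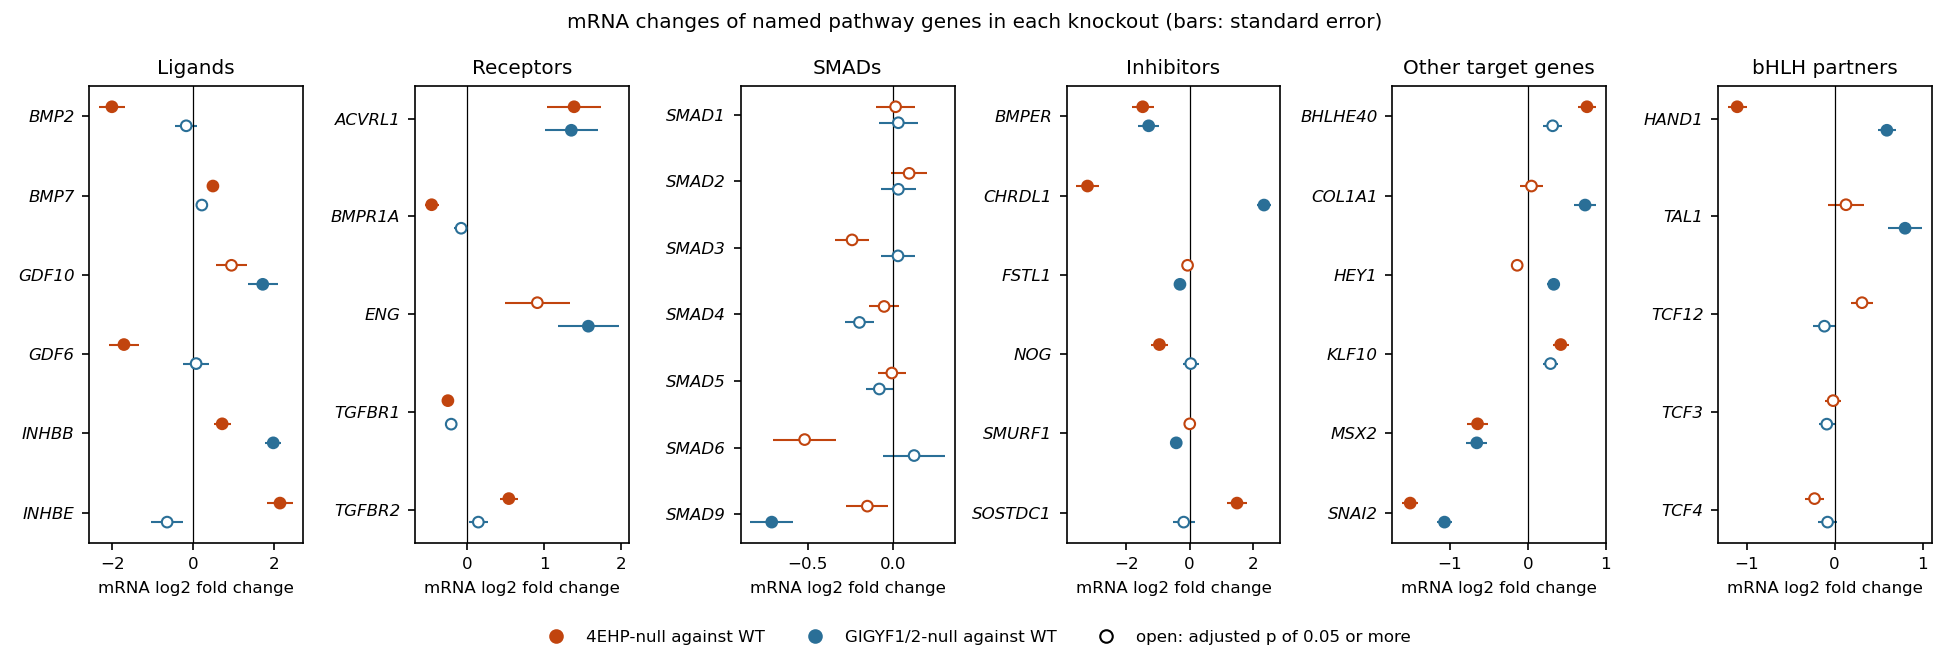
mRNA log2 fold changes with standard errors of pathway genes in 4EHP-null (orange) and GIGYF1/2-null (blue) against WT, in 6 panels by role with separate axes; filled points have an edgeR adjusted p under 0.05, and both colours share the WT libraries. CHRDL1 lies at -3.22 in 4EHP-null and 2.35 in GIGYF1/2-null cells, and the points of SMAD1 to SMAD5 are open.

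Other target genes of TGF-beta and BMP went both ways in each null line. Of 18 tested, 4 rose and 3 fell in 4EHP-null mRNA, and 3 rose and 4 fell in GIGYF1/2-null mRNA, with medians of 0.19 and 0.085. SNAI2, a zinc-finger repressor of epithelial genes, had 17.1 and 16.2 CPM in 4EHP-null cells, 22.5 and 22.7 in GIGYF1/2-null cells and 47.4 and 47.2 in WT cells. It fell in both lines, by 1.5 ± 0.10 in 4EHP-null cells (adjusted p = 1.65e-06) and by 1.06 ± 0.10 in GIGYF1/2-null cells (adjusted p = 5.13e-05). BHLHE40, a helix-loop-helix repressor, rose by 0.76 ± 0.12 in 4EHP-null cells (adjusted p = 0.00156), with 24.1 and 25.6 CPM against 14 and 15.3 in WT. Among 12 tested helix-loop-helix partners of the ID proteins, 1 fell in 4EHP-null cells and 3 rose in GIGYF1/2-null cells. HAND1, a factor of heart and trophoblast development that dimerises with E proteins, was the one that fell. It had 15.8 and 14.8 CPM in 4EHP-null cells, 48.2 and 51.5 in GIGYF1/2-null cells and 32.7 and 33.3 in WT cells, which gave -1.11 ± 0.11 (adjusted p = 3.69e-05) in 4EHP-null and 0.59 ± 0.10 (adjusted p = 0.00228) in GIGYF1/2-null cells against WT. The SNAI2, BHLHE40 and HAND1 calls held with any 1 library left out.

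The members lie on 7 chromosomes, and their changes were set beside those of the 24 nearest tested genes. Medians of these neighbours lay between -0.08 (ID2) and 0.14 (SKIL) in 4EHP-null cells, and between -0.07 (SKIL) and 0.14 (ID4) in GIGYF1/2-null cells. ID2, on chromosome 2, changed by -0.36 in 4EHP-null and 0.38 in GIGYF1/2-null cells, where its neighbours had medians of -0.08 and -0.06. Around ID4, the median of 0.14 in GIGYF1/2-null cells was near the gene's own 0.20. SKIL differed by 0.52 between the null lines while 20 of its 24 neighbours were negative, with a median of -0.23. Neighbours of SMAD3 and SMAD6, which adjoin each other on chromosome 15, were negative for 21 of 24 genes in 4EHP-null cells.

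The part of neighbouring genes in any of these changes was not tested.

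**Figure D5:**
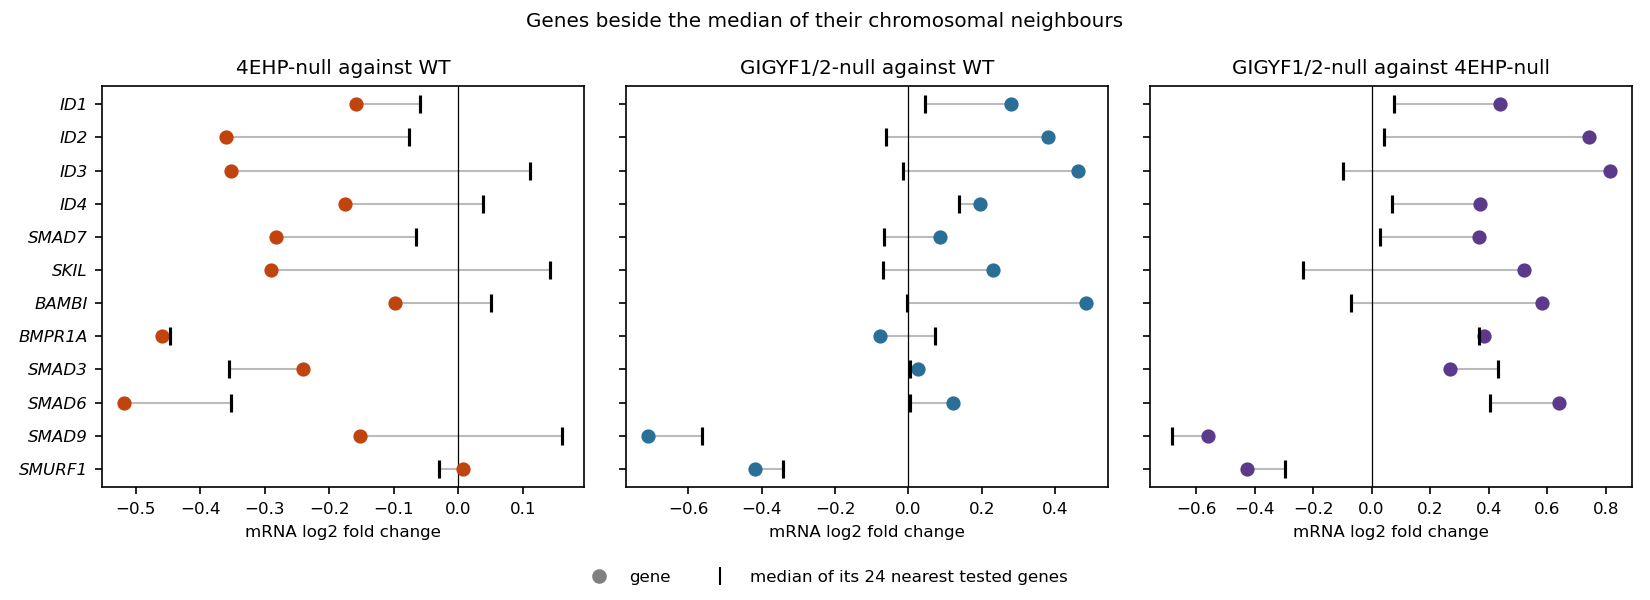
mRNA log2 fold changes of the 7 genes and 5 other pathway genes (circles) beside the median of their 24 nearest tested genes (black bars), for the 3 comparisons, with separate axes. The bars of the 7 genes lie between -0.23 and 0.14. Those of BMPR1A, SMAD6, SMAD9 and SMURF1 lie on the gene's side of 0 where its change was called.

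Genes with the most similar pattern were ranked by the root mean square difference from a member in log2 CPM relative to WT over 12 libraries, among 10532 protein-coding genes. The ranking was made for the 5 members called in mRNA. Nearest to ID2 were TFAM (0.093), METTL10 (0.096) and NUDT8 (0.114), where the median gene differed by 0.381. TFAM, a mitochondrial DNA-packaging factor, changed in mRNA by -0.30 in 4EHP-null and 0.25 in GIGYF1/2-null cells. COMTD1 (0.115), ENHO (0.12) and METTL10 (0.121) were nearest to ID3, and PYGO2 (0.073), ZNF703 (0.088) and RPS6KL1 (0.096) to ID4. BAMBI had ABHD14B (0.142), NRGN (0.144) and RTN4RL2 (0.146), and SKIL had DMD (0.081), PSTPIP2 (0.113) and SNRPA1 (0.124). Within the set, ID2 was the 10th nearest gene to BAMBI and ID1 the 28th nearest to ID4, while BAMBI ranked 1505th for ID4. SKIL ranked from 276th (for ID2) to 2353rd (for ID4), and SMAD7 from 1817th (for ID3) to 7380th (for SKIL).

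In the authors' deposited table for 4EHP-null mRNA, which calls 19.9% of 11268 genes, ID2 (-0.37, adjusted p = 0.000763) and ID3 (-0.36, adjusted p = 0.0278) are past the threshold. The authors' deposited table for GIGYF1/2-null mRNA calls 17.6% of genes and holds ID2 (0.39, adjusted p = 0.000246), ID3 (0.475, adjusted p = 0.00189) and BAMBI (0.50, adjusted p = 0.000123) among them. For footprints, the authors' deposited table for GIGYF1/2-null cells calls 5.84% of 10766 genes, with ID2 (0.54, adjusted p = 0.0149) and BAMBI (0.71, adjusted p = 0.003) among them. None of the members listed is called in the authors' deposited footprint table for 4EHP-null cells or in their translation efficiency tables, and SMAD7 is not listed in the footprint and efficiency tables.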

How the data were processed

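The authors deposited raw read counts per gene symbol, with no normalization, for RNA-seq and Ribo-seq. They also deposited tables of each knockout against WT with log2 fold changes, unadjusted p-values and adjusted p-values, per the file headers. The submitters' processing notes name Bowtie2, TopHat2, edgeR and hg19 without versions; for how reads were counted, and on which annotation and strand, the sources used here give nothing. Reads of an antisense partner such as ID2-AS1 cannot be told apart from those of ID2.

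Counts were analysed in R 4.3.3 with edgeR 4.0.16 (filterByExpr, TMM within each assay, quasi-likelihood F-test, two-sided) on all 6 libraries per assay, with 1 spread for the 3 genotypes. Genes tested numbered 15637 in RNA-seq, 14722 in Ribo-seq and 13257 for translation efficiency, with Benjamini-Hochberg adjustment over all of them in each of 9 comparisons. Fold changes are given as log2 values ± SE and levels as CPM on TMM-scaled library sizes. The SE is the absolute log2 fold change over the square root of F. Intervals at 95% use the moderated degrees of freedom. The limit for 0 counts is 3 counts per library and covers counting error only. The scripts were tested on simulated data. Alternatives were scaling by RLE or upper quartile, omitting or tightening the filter (1 CPM in 4 libraries), DESeq2 1.42.0, voom in limma 3.58.1, fitting the compared genotypes alone, a block for replicate number or (for efficiency) cell sample, and omission of each library.

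The series calls the libraries biological replicates without saying whether they are separate cultures, and p-values cover only their spread, which may be technical. Members and lists were chosen with earlier results of these data known. Named pathway genes were those called with the smallest adjusted p (up to 2 per direction, list, readout and knockout against WT), all SMADs and the 3 E proteins. Likeness used a pseudocount of 0.5 CPM, genes with a mean log2 CPM of at least 2 and the nearest 3 per gene. Gene order and promoters came from RefSeq tables of GRCh38.p14, matched by symbol to 97.8% of genes tested in mRNA and to all 7 members. No genome or protein sequences were used here. The value of 1 marker gene is not reported here.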

Additional observations from a re-analysis of the deposited data

Results flagged for a closer look

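Several members had changes of opposite sign, not all of them past the threshold, in the 2 null lines against the shared WT libraries, and the difference between the null lines passed the edgeR test itself. In mRNA the GIGYF1/2-null minus 4EHP-null log2 difference was 0.743 for ID2, 0.815 for ID3, 0.371 for ID4, 0.521 for SKIL and 0.584 for BAMBI. In footprints it was 0.789 for ID1, 0.754 for ID2, 0.892 for ID3 and 0.944 for BAMBI. In each of these the GIGYF1/2-null libraries were both above the 4EHP-null libraries. No group had the 4 samples needed to look for single outlying libraries. Markers of HEK293T summed to 862 and 743 CPM in 4EHP-null cells, 1181 and 936 CPM in GIGYF1/2-null cells and 1206 and 1054 CPM in WT cells, and their part in these differences was not tested.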

How the results depend on the processing

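No member's fold change that passed turned its sign under any alternative. Of 294 alternatives for the members' mRNA changes 261 kept direction and side of the threshold, of 294 for footprints 272, and of 441 for efficiency 404. The signs that changed, 5 in mRNA, 3 in footprints and 37 in efficiency, were of changes that passed neither way. Members called in mRNA numbered 1 in 4EHP-null against WT (0 to 2 with 1 library left out; 2 without the filter, with the stricter filter, by DESeq2 and with the compared genotypes alone), 3 in GIGYF1/2-null against WT (1 to 3) and 5 between the null lines (3 to 6). For footprints they numbered 0, 0 (0 to 1; 2 by upper quartile, 2 without the filter, 1 by DESeq2) and 4 (1 to 5). Replicate numbers are shared between genotypes but pair nothing in the labels; differences of same-numbered libraries correlated at 0.137 to 0.328 in mRNA and 0.159 to 0.369 in footprints over 2 numbers. With the replicate block, members called became 3 in mRNA of 4EHP-null against WT (ID2, ID3 and SKIL), 1 in its footprints (ID3) and 4 in footprints of GIGYF1/2-null against WT (ID1, ID2, ID3 and BAMBI). Between the null lines, ID1 mRNA was called in 5 of 14 alternatives, SMAD7 mRNA in 3 and ID4 footprints in 5. Not all of these fits left out a library.

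All genes called in mRNA numbered 2048, 1868 and 3820 in these 3 comparisons, 810 to 2537, 783 to 1819 and 2238 to 3756 with 1 library left out, and 3571 and 3224 against WT with the block. In footprints they numbered 448, 307 and 1587, with 118 to 751, 59 to 671 and 431 to 1659 on leaving out 1 library, 1166, 1135 and 2405 without the filter, 1830, 1747 and 3291 with the block, and 769 and 174 against WT with the compared genotypes alone. For efficiency the counts were 13, 6 and 24, with 5 to 59, 1 to 8 and 7 to 50 on leaving out 1 library, 43, 21 and 59 by DESeq2, 88, 30 and 114 with the replicate block, 28, 11 and 50 with a block per cell sample, 22 and 14 with the compared genotypes alone (4EHP-null against WT and between the null lines), and 10 without the filter in GIGYF1/2-null against WT.

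Pathway genes called in mRNA numbered 24 (7 to 24 with 1 library left out), 19 (6 to 20; 30 with the block) and 35 (18 to 31). In footprints they numbered 5 (0 to 8; 11 without the filter, 3 by DESeq2, 15 with the block, 8 with the compared genotypes alone), 3 (1 to 4; 8, 1, 11 and 1 under the same settings) and 9 (2 to 8; 3 by DESeq2, 16 with the block). The cause was not tested. The 6 pathway lists hold 118 genes, not all of them tested. Of 15637 genes tested in mRNA, 1012 rose and 1036 fell in 4EHP-null cells against WT. In GIGYF1/2-null cells against WT 813 rose and 1055 fell. Between the null lines 1788 were higher and 2032 lower in GIGYF1/2-null cells. Depth limits SMAD7 footprints most, with 6 to 29 reads per library, and 2 libraries per genotype limit every test.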

Other observations

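THBS1, a matrix glycoprotein that activates latent TGF-beta, was chosen after its values were seen. It had 0.244 and 0.419 CPM of mRNA in 4EHP-null cells, 1.58 and 1.34 CPM in GIGYF1/2-null cells and 0.542 and 0.753 CPM in WT cells. The null lines differed in THBS1 by 2.16 ± 0.43 (log2 ± SE, adjusted p = 0.0032, edgeR), called with any 1 library left out. MSX2, a homeobox target of BMP, had 17.9 and 14 CPM in 4EHP-null cells, 17.3 and 14.6 CPM in GIGYF1/2-null cells and 25.0 and 25.0 CPM in WT cells. It fell in both null lines, by 0.64 ± 0.13 in 4EHP-null (adjusted p = 0.00779, and 0.0834 without 4EHP-null RNA-seq replicate 2) and by 0.65 ± 0.13 in GIGYF1/2-null cells (adjusted p = 0.00695, and 0.0509 without GIGYF1/2-null replicate 2).

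The ligand gene GDF10 lies on chromosome 10 among 24 tested neighbours that all had positive mRNA changes in 4EHP-null cells, with a median of 1.49, while their median in GIGYF1/2-null cells was 0.08. GDF10 itself had 1.25 and 1.26 CPM in 4EHP-null cells, 2.34 and 1.96 CPM in GIGYF1/2-null cells and 0.407 and 0.86 CPM in WT cells. In 4EHP-null cells GDF10 changed by 0.95 ± 0.39 and was not called (adjusted p = 0.132, edgeR). It rose in GIGYF1/2-null cells by 1.72 ± 0.37 (adjusted p = 0.00907, edgeR), a call lost without WT RNA-seq replicate 1 (0.0937).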
